A study of Mus musculus with 10 samples.

Results

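Genomic regions in which acetylation of histone H3 lysine 9 (H3K9ac) was higher at 24 h or at 240 h of adipocyte differentiation were compared in 3T3-L1 cells. Every region that the authors listed at either time was taken, 1629 at 24 h and 7845 at 240 h, which are 9474 of the 13903 H3K9ac regions listed in the series. The remaining 4429 regions were listed at 0 h, in undifferentiated cells, and served as a comparison. 3T3-L1 is an established mouse fibroblast line that becomes fat-storing in culture, and no transgene, deletion or drug arm is named for any of these samples. All were grown in high-glucose medium with fetal bovine serum, and differentiation was induced by what the labels call a standard protocol, without naming the agents. The data are chromatin immunoprecipitation followed by sequencing (ChIP-seq), with 1 library at each time, so no value has a replicate error and no p-value between times can be had. Each list holds sites away from transcription start sites where the authors called the mark stronger at the named time than at one or the other of the remaining times. A 24 h region may thus have been listed for exceeding 0 h alone, and a site missing from a list may still carry the mark. Peaks of the transcription factor C/EBPβ (10359 at 0 h and 20746 at 6 h) and of the glucocorticoid receptor (GR, 4007 at 6 h) in the same line were used only to describe the surroundings of the regions. No expression was measured, so the identity of the cells could not be checked against marker genes.

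Acetylation of H3 lysine 9 is placed by histone acetyltransferases such as GCN5 and PCAF and removed by histone deacetylases. It is found at active promoters and at enhancers, and away from start sites it commonly marks enhancers in use. In 3T3-L1 cells the first day after induction is governed by early factors that include C/EBPβ and GR, and the adipocyte state is later maintained by PPARγ and C/EBPα.

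Regions listed at 240 h were somewhat broader than those at 24 h. Widths at 24 h ran from 700 to 14300 bp with a median of 1300 bp (95% interval 1250 to 1350, n = 1629 regions), and the middle of the list lay between 1050 and 1900 bp, its lower and upper quartiles. At 240 h they ran from 650 to 20900 bp with a median of 1600 bp (1600 to 1650, n = 7845) and quartiles of 1150 and 2500 bp. The lists overlapped over most of this range and differed chiefly in their broad regions. Regions of 3 kb or more made up 17.7% of the 240 h list (16.9 to 18.6%) and 8.41% of the 24 h list (7.16 to 9.86%), a difference of 9.31 percentage points (7.64 to 10.8). Regions of 5 kb or more made up 5.05% (396 regions) and 1.47% (24 regions). At 240 h the listed regions covered 16585 kb in all, and at 24 h 2723 kb. Intervals are 95% intervals, by Wilson for shares, by Newcombe for differences of shares and from order statistics for medians. They cover counting error only, and the spread between cultures is not known.

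The width of a region went with the confidence of its call. The authors gave each region a false discovery rate (FDR) in a few steps, the lowest of which was written as 0, and 45.3% of the 240 h list but 17.6% of the 24 h list stood at this step. Within it the median width was 2350 bp at both times, with intervals of 2200 to 2400 bp at 24 h and 2250 to 2400 bp at 240 h. At the highest step it was 1050 bp at both times, at an FDR of 6.18e-05 at 24 h and of 2.33e-05 at 240 h. The difference in regions of 3 kb or more was 3.35 points (-2.44 to 8.66) among those with an FDR of 0, an interval that took in 0. With the 240 h list limited to its 1629 highest regions by read count it was 37.1 points (34.3 to 39.8). Read count rose with width at 240 h, as given below, so this limit favours broad regions, while the 24 h list stayed whole. That value is thus no second estimate of the difference, whose size rests on how the lists are limited. The average read count, the authors' read signal over a region, had a median of 9 at 24 h and 11 at 240 h. Its highest values were 18 and 45. Among regions with a read count of 9 the median width was 1150 bp at 24 h (1100 to 1200, n = 607) and 1400 bp at 240 h (1350 to 1450, n = 1274), while at a read count of 10 it was 1300 bp at both times. Spearman's rho between read count and width was 0.14 across the 24 h regions and 0.37 across the 240 h regions. The values share 1 library each, and the depth of both libraries is unknown.

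**Figure D1:**
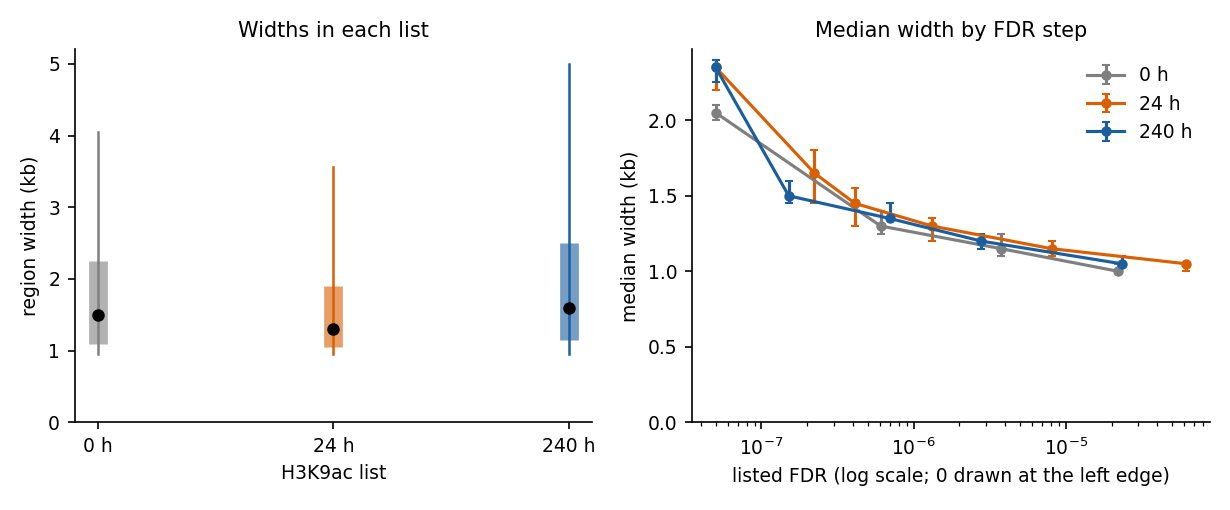
Left, width of H3K9ac regions in kb for the 0 h, 24 h and 240 h lists, with the median (point), quartiles (thick bar) and 5th to 95th percentiles (line). Right, median width in kb against the listed FDR with 95% order-statistic intervals. At an FDR listed as 0 the 24 h and 240 h medians are both 2350 bp.

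The 3 widest 24 h regions lay on chromosome 8 at 13471900 to 13486200 (14300 bp), chromosome 4 at 117133900 to 117146200 (12300 bp) and chromosome 8 at 13411000 to 13419600 (8600 bp). Coordinates are on the mouse build mm8 as deposited. All 3 held a C/EBPβ 6 h peak, with heights of 26, 30 and 35. The latter 2 also held a GR peak, with heights of 40 and 23. In 100 kb windows with 240 h regions, 32.3% of all 24 h regions had a C/EBPβ 6 h peak within 1 kb. A GR peak lay within 1 kb of 18.9% of them. In the other windows these shares were 36.0% and 22.2%. The part of width in the peaks of the widest regions was not tested. From the 3 widest, the nearest 240 h regions were 84.05, 180.95 and 24.25 kb away.

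The 3 widest 240 h regions lay on chromosome 8 at 127711500 to 127732400 (20900 bp), chromosome 6 at 94558100 to 94576200 (18100 bp) and chromosome 5 at 36187100 to 36203300 (16200 bp). Only the first of them held a C/EBPβ 6 h peak, of height 24. In windows with 24 h regions, 12.3% of all 240 h regions had a C/EBPβ 6 h peak within 1 kb. A GR peak lay within 1 kb of 4.16% of them. In the other windows these shares were 12.6% and 2.13%. The 3 widest had their nearest GR peaks 274, 47.5 and 234 kb away, and their nearest 24 h regions 791, 1516 and 575 kb. None of their 100 kb windows held a 24 h region, and no window of the 3 widest 24 h regions held a 240 h region. This was common, as 91.4% of all 240 h regions lay in windows without a 24 h region. Of all 24 h regions, 71.5% lay in windows without a 240 h region.

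By average read count the highest 24 h regions were on chromosome 2 at 160493000 to 160498950 (value 18), chromosome 16 at 84583900 to 84589000 (17) and chromosome 19 at 17014850 to 17018850 (17). Those on chromosomes 2 and 19 held GR peaks of height 63 and 103 and C/EBPβ 6 h peaks of height 43 and 16. Shares of the whole lists near such peaks are given above. The highest 240 h regions were on chromosome 19 at 44467550 to 44473250 (45), chromosome 19 at 40404250 to 40411400 (38) and chromosome 1 at 195010150 to 195014250 (34). The first had a C/EBPβ 6 h peak 2.35 kb and a GR peak 2.26 kb away. The second held a C/EBPβ 6 h peak of height 17, and none of the 3 held a GR peak. No 24 h region lay within 482 kb of any of these 3, and the median distance over the whole 240 h list was 478 kb. The chromosome 2 region was the only one of the 3 highest at 24 h whose window also held 240 h regions, 3 of them.

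Regions of one time lay close to each other. The median gap from a 24 h region to the nearest other 24 h region on either side was 50.45 kb (40.8 to 63.0). From a 240 h region to the nearest other 240 h region it was 5.4 kb (5.0 to 5.9). When regions of a list less than 12500 bp apart were joined, 67.5% of 24 h regions and 37.8% of 240 h regions stood alone. Clusters of at least 3 regions held 13.9% of the 24 h list (12.3 to 15.6%, 226 regions in 60 clusters) and 39.9% of the 240 h list (38.8 to 41.0%, 3131 regions in 705 clusters). The 0 h list lay between them with 23.1%.

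These shares follow the length of a list, since a longer list leaves shorter gaps. With the 240 h list limited to its 1629 highest regions by read count, 14.8% of it stood in clusters, and the difference from the 24 h list was 0.921 points (-1.49 to 3.33). A measure that loss of regions at random leaves the same on average was therefore set beside them. The number of ordered pairs of regions of one list in the same 100 kb window was divided by the number that the mean per window would give, which is its square. This pair ratio was 17.1 for the 24 h list, 9.99 for the 240 h list and 11.1 for the 0 h list. The shorter 24 h list was thus the more unevenly spread of the 3 by this measure, although fewer of its regions had a close neighbour. In windows of 20 kb the ratios were 27.5, 15.1 and 16.5, and in windows of 1000 kb 5.25, 3.91 and 4.12. With the lists at equal length the 240 h ratio was 15.98, and with the lowest FDR step alone the ratios were 47.7 at 24 h and 12.1 at 240 h, so the size of the gap between the times rests on how the lists are limited.

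Clustered regions were broader than lone ones at both times. At 24 h the median width was 1750 bp (1600 to 1950) in clusters and 1200 bp (1200 to 1250) for regions that stood alone, and at 240 h 1850 bp (1800 to 1900) and 1450 bp (1400 to 1500). Regions of 3 kb or more made up 17.7% of the clustered and 6.10% of the lone 24 h regions, and 25.2% and 10.7% at 240 h. The largest 24 h cluster held 11 regions on chromosome 3 between 151966800 and 152024650, with 5 C/EBPβ 6 h and 3 GR peaks inside it. The next held 8 on chromosome 17 between 79669250 and 79714050, and a single 240 h region lay among them, with 10 C/EBPβ 6 h and 2 GR peaks.

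The 2 largest 240 h clusters were longer than those of 24 h. One on chromosome 6 between 88668450 and 88797800 had 23 regions that covered 99.05 of its 129.35 kb, and one on chromosome 17 between 27657950 and 27755450 had 20 regions. They held 3 and 2 C/EBPβ 6 h peaks and no GR peak. No 24 h region lay in either cluster or in the 100 kb on each side, where the one on chromosome 17 had 1 region of 0 h.

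**Figure D2:**
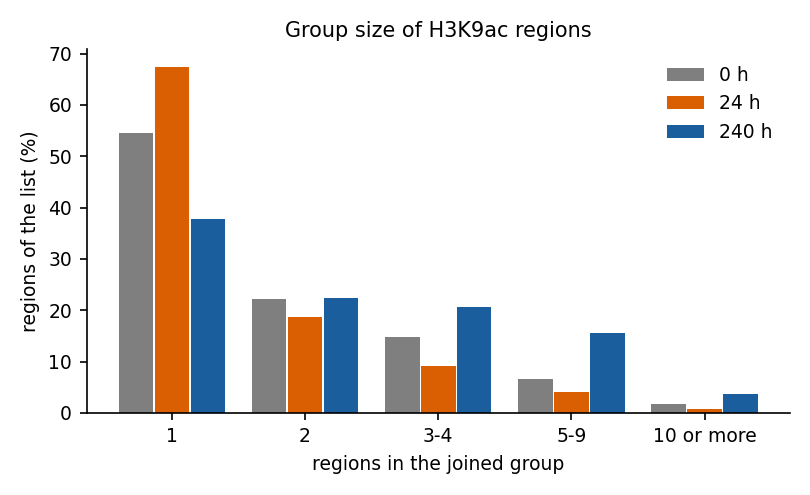
Share of each H3K9ac list (%) by the number of regions in the joined group, where regions of 1 list with gaps under 12500 bp are joined. Lone regions make up 67.5% of the 24 h list and 37.8% of the 240 h list, and the lists differ in length.

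No 24 h region overlapped a 240 h region. Both lists were made by comparison between times, so this can follow from how they were called. The distance between the lists was large for most regions. From a 24 h region the nearest 240 h region was at a median of 128.4 kb (116 to 147, n = 1629), with quartiles of 37.25 and 410.3 kb. From a 240 h region the nearest 24 h region was at a median of 478 kb (462 to 500, n = 7845). A 240 h region lay within 1 kb of 16 of the 24 h regions (0.982%), within 10 kb of 126 (7.73%, 6.53 to 9.13%) and within 100 kb of 734 (45.1%, 42.7 to 47.5%).

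The 0 h list, although shorter than the 240 h list, came nearer to the 24 h regions at short range. A 0 h region lay within 1 kb of 37 of the 24 h regions (2.27%), and 5 of these touched the 24 h region with no gap. At 1 kb the share near 240 h minus the share near 0 h was -1.29 points (-2.21 to -0.422). At 10 kb it was -0.307 points (-2.17 to 1.55), and at 100 kb it was 6.38 points (2.997 to 9.75). Both shares come from the same 1629 regions, which the intervals do not take into account.

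Density around the regions showed the same without reference to list length. Within 10 kb of the centres of 24 h regions, 240 h regions were 1.28-fold as dense as over the whole genome (1.07 to 1.53, 125 pairs), and 0 h regions 2.47-fold (2.07 to 2.92, 136 pairs). Other 24 h regions were 32.1-fold as dense there. The 240 h regions were at 0.461-fold (9 pairs) under 2 kb, but regions that do not overlap leave little room for centres so close. Other 24 h regions were also sparser there, at 13.8-fold against 51.7-fold at 2 to 5 kb, and 0 h regions were at 2.54-fold and 2.91-fold. The 240 h density was 1.37-fold (0.977 to 1.86) at 2 to 5 kb. It reached 2.17-fold (1.99 to 2.36, 529 pairs) at 25 to 50 kb, close to the 2.34-fold of 0 h regions at that distance. At 50 to 100 kb both lists were about as dense around 24 h regions, at 1.97-fold for 240 h and 1.99-fold for 0 h. Farther out the 240 h list was the denser, with 1.93-fold (1.87 to 1.98) against 1.60-fold (1.54 to 1.67) at 250 to 500 kb and 1.64-fold (1.61 to 1.68) against 1.40-fold (1.36 to 1.45) at 500 to 1000 kb. The genome means were 2.99 regions per Mb at 240 h, 0.622 at 24 h and 1.69 at 0 h. Intervals here are exact Poisson intervals of the pair counts, and pairs share regions. With lists of equal length the 240 h density within 10 kb was 0.790-fold, from 16 pairs, and the 0 h density 1.73-fold, from 35.

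**Figure D3:**
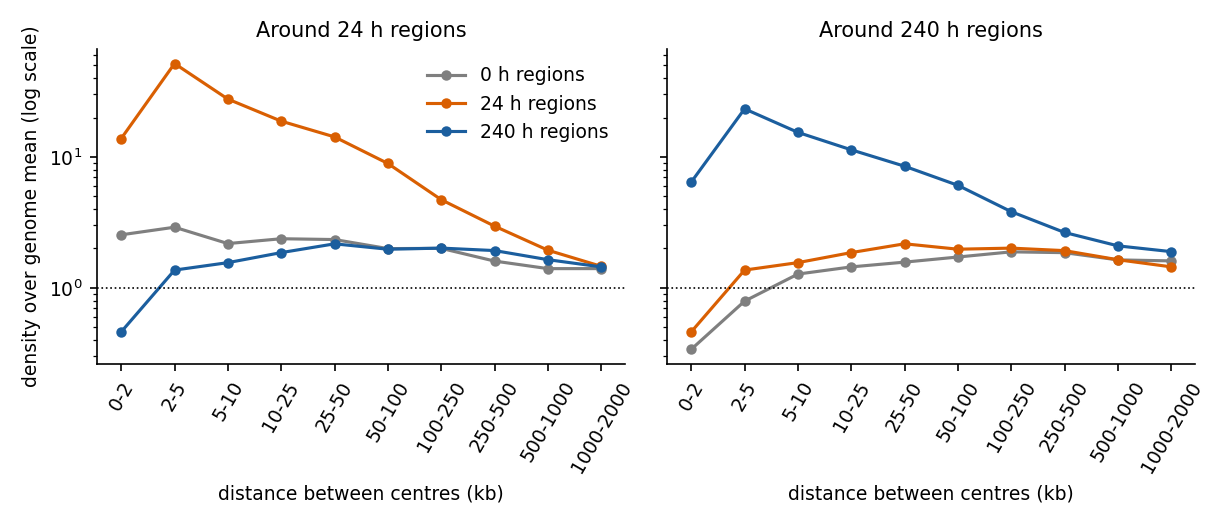
Density of H3K9ac regions of each list around 24 h regions (left) and 240 h regions (right), as a multiple of that list's mean density over the genome (log scale), by distance between centres in kb. Around 24 h regions the 240 h density is 1.37 at 2 to 5 kb and 2.17 at 25 to 50 kb, and the dotted line marks the genome mean. Under 2 kb it is 0.461, where regions that do not overlap leave little room for centres.

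The nearest listed region was of the same time more often than that list's share of the other regions. Among all 13903 regions 56.4% are of the 240 h list and 11.7% of the 24 h list. For 24 h regions the nearest listed region was another 24 h region in 48.9% of cases (46.5 to 51.4%), a 240 h region in 26.6% (24.5 to 28.8%) and a 0 h region in 24.5% (22.5 to 26.6%). For 240 h regions it was another 240 h region in 84.9% (84.1 to 85.7%) and a 24 h region in 4.89% (4.44 to 5.39%). A 24 h region thus stood beside a 240 h region at 0.471 times, and beside its own list at 4.18 times, the share of those lists among all other regions. In order along the chromosomes, 379 of 1625 24 h regions (23.3%) had 24 h regions on both sides and 214 (13.2%) had 240 h regions on both sides.

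Runs of one list show how the times alternate. The longest run of 24 h regions with no region of another time between them had 21 regions over 1016 kb, on chromosome 13 between 90300450 and 91316800. The longest run at 240 h had 55 regions over 1600 kb, on chromosome 11 between 53622350 and 55222700. Runs of at least 10 regions held 46.6% of the 240 h list, 22.9% of the 0 h list and 6.75% of the 24 h list. Run length follows a list's share of all regions, which is 56.4% for 240 h and 11.7% for 24 h, so these shares are no comparison of clustering.

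There were 17 pairs of a 24 h and a 240 h region with a gap of at most 1 kb, and the median gap was 300 bp. They are sites where acetylation was listed side by side at both times. The pair with the highest summed read count lay on chromosome 5, with a 24 h region at 137349800 to 137351050 (read count 12) and a 240 h region at 137351250 to 137352750 (17), 200 bp apart. Next came pairs on chromosome 11 at 105762400 to 105764950 (9) beside 105760650 to 105761900 (14), and on chromosome 18 at 57678750 to 57679850 (9) beside 57676250 to 57678500 (14). The remaining pairs of the 5 highest lay on chromosome 4 at 119769700 to 119771550 (8) beside 119772500 to 119775600 (14), and on chromosome 17 at 28173850 to 28176250 (10) beside 28172550 to 28173750 (11). The 240 h member had the higher read count in 15 of the 17 pairs and the same in 2, but read counts were not scaled between the libraries here. A C/EBPβ 6 h peak lay within the span of 6 of the 17 pairs and a GR peak within 2. Among all 24 h regions in windows with a 240 h region, 32.3% had a C/EBPβ 6 h peak and 18.9% a GR peak within 1 kb. For 240 h regions in windows with a 24 h region these shares were 12.3% and 4.16%. The span of a pair is another measure than this distance, and the pairs are few.

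Early factor binding surrounded the lists to different degrees. Within 10 kb of 24 h region centres, GR peaks were 16.8-fold as dense as over the genome (15.7 to 18.0, 838 pairs) and C/EBPβ 6 h peaks 7.51-fold (7.17 to 7.85, 1936 pairs). Around 240 h regions the same densities were 2.89-fold for GR (2.68 to 3.12, 694 pairs) and 2.95-fold for C/EBPβ (2.85 to 3.04, 3660 pairs). Around 0 h regions they were 4.71-fold and 4.96-fold. The 24 h regions thus differed from both other lists more in the density of GR, the receptor for glucocorticoid hormones, than in that of C/EBPβ.

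Fixed windows of 100 kb were used to ask whether windows with 24 h regions also held 240 h regions. Each region belonged to the window of its centre. Acetylation that did not change between times is not listed, so the windows do not show whether it was kept. Of 26214 windows, 4.35% held a 24 h region, 12.9% a 240 h region and 9.75% a 0 h region. Of the 1141 windows with a 24 h region, 332 also held a 240 h region (29.1%, 26.5 to 31.8%). Of the 25073 windows without one, 3058 did (12.2%, 11.8 to 12.6%), a difference of 16.9 points (14.3 to 19.6) and a ratio of 2.39. The other 809 windows with 24 h regions held no 240 h region, and 261 of these (32.3%) had one in the next window on either side. Among windows with neither list, 13.7% had a 240 h region next to them. With lists of equal length, 6.66% of windows with and 4.204% of windows without a 24 h region held a 240 h region. The difference was then 2.46 points (1.13 to 4.07). With the lowest FDR step alone these shares were 15.7% and 7.76%, a difference of 7.96 points (3.81 to 13.2). The size of the difference thus rests on how the lists are limited.

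More 24 h regions in a window did not go with a higher share. Windows with 1 such region held a 240 h region in 29.2% of cases (26.3 to 32.4%, n = 855), those with 2 in 30.7% (24.4 to 37.8%, n = 179) and those with at least 3 in 25.2% (18.0 to 34.2%, n = 107). The difference of windows with at least 2 from windows with 1 was -0.568 points (-6.41 to 5.67). For 0 h regions the share fell from 27.3% with 1 region to 16.5% with at least 3, a difference of -10.9 points (-14.7 to -6.52).

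Windows with a listed 0 h region held 240 h regions nearly as often as those with a listed 24 h region. A 240 h region was found in 25.5% of the 2556 windows with a 0 h region (23.9 to 27.2%). Where only one of the 2 early lists was present, the share was 29.4% with 24 h regions (n = 856) and 25.2% with 0 h regions (n = 2271), a difference of 4.25 points (0.778 to 7.84). This interval took in 0 with windows shifted by 50 kb (2.85 points, -0.640 to 6.47), and with lists of equal length the difference was -0.0732 points (-2.25 to 2.11), so which of the early lists had the higher share is not settled. In windows with a 0 h region, a 24 h region added 2.88 points (-2.34 to 8.64).

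Factor binding differed between these windows, since 617 of the 1141 with a 24 h region held a GR peak and 2168 of the 25073 others did, so the shares were also taken within classes of binding. Without a C/EBPβ 6 h peak in the window, 23.3% of windows with a 24 h region (45 of 193) and 5.76% of the others held a 240 h region, a difference of 17.6 points (12.1 to 24.0). With 1 such peak the difference was 9.18 points (3.03 to 15.97), with 2 it was 4.67 (-2.13 to 12.3), and with at least 3 it was -3.12 (-7.20 to 1.17). In that last class it was -5.98 (-9.96 to -1.74) with windows shifted by 50 kb and -11.4 (-15.05 to -7.14) with windows of 50 kb. With lists of equal length it was -5.26 (-7.59 to -2.52). With windows of 200 kb it was 2.66 (-1.52 to 6.88), so its sign was not the same at every window size. Among windows with a GR peak the shares were 29.8% with and 29.98% without a 24 h region, and among windows without one 28.2% and 10.5%. With a GR peak the difference was -5.27 points (-8.54 to -1.64) with windows of 50 kb and -3.66 (-5.91 to -1.04) with lists of equal length. With windows of 200 kb it was 3.498 (-0.930 to 7.97), so here too the sign varied with window size. Across these classes, with windows of 100 kb and the full lists, the share ranged from 23.3 to 31.7% with a 24 h region. Without one it ranged from 5.76 to 32.7%. In windows with no C/EBPβ or GR peak and no 0 h region the share was 17.8% with a 24 h region (21 of 118) and 4.23% without, a difference of 13.6 points (7.70 to 21.5). In the complementary windows, with any of these peaks or a 0 h region, a setting chosen after these values were seen, the shares were 30.4% with and 26.05% without a 24 h region, a difference of 4.35 points (1.47 to 7.38).

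**Figure D4:**
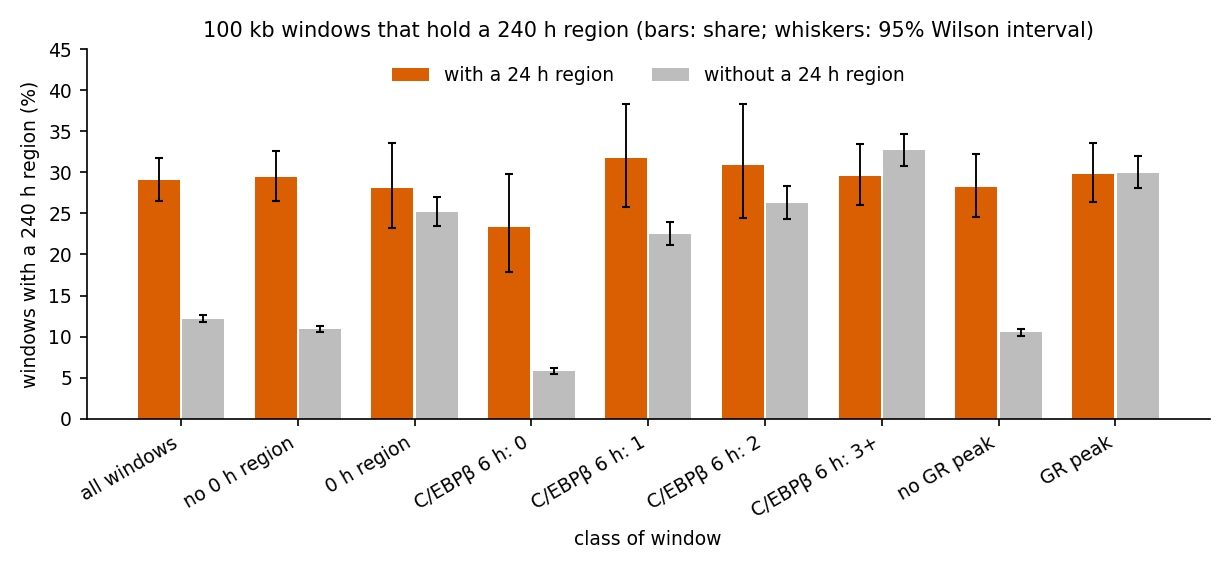
Share of 100 kb windows that hold a 240 h region (%), for windows with (orange) and without (grey) a 24 h region, over all windows and by 0 h regions, C/EBPβ 6 h peaks and GR peaks in the window, with 95% Wilson intervals. The orange bars lie between 23.3 and 31.7%, while the grey bars range from 5.76 to 32.7%.

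Seen from 240 h, 9.79% of the 3390 windows with a 240 h region had held a 24 h region (8.84 to 10.8%), against 3.54% of the others. Windows dense in 240 h regions held 24 h regions less often than windows with 1. A 24 h region was present in 9.86% of windows with 1 240 h region, in 12.3% of those with 2, in 9.50% of those with 3 to 4 and in 5.47% of those with at least 5 (21 of 384). The last share minus the first was -4.39 points (-6.80 to -1.33), and 4.35% of all windows held a 24 h region. A 0 h region was present in 14.1% of the windows with at least 5 240 h regions, in 20.2% of those with 1 and in 9.75% of all. Of the 43 windows with at least 10 240 h regions none held a 24 h region, which allows a share of up to 6.98% when 3 counts are taken as the limit of a count of 0, and up to 8.201% by Wilson. Windows with at least 5 240 h regions held 2.04 C/EBPβ 6 h peaks on average and those with 1 held 1.73.

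By nearby 6 h factor peaks, the 24 h regions beside 240 h regions differed from the others by no more than the intervals. The 240 h regions beside 24 h regions were more often near GR, in windows that more often held a GR peak. The 465 24 h regions in windows with a 240 h region had a median width of 1250 bp (1200 to 1350) and the other 1164 one of 1300 bp (1300 to 1400). A GR peak lay within 1 kb of 18.9% and 22.2% of them, a difference of -3.24 points (-7.37 to 1.21), and a C/EBPβ 6 h peak near 32.3% and 36.0%. A C/EBPβ 0 h peak lay near fewer of the former, at 9.03% (6.75 to 12.0%) against 12.6% (10.8 to 14.7%). The 673 240 h regions in windows with a 24 h region were near GR in 4.16% of cases (28 regions) and the other 7172 in 2.13%, a difference of 2.03 points (0.710 to 3.84). Near C/EBPβ at 6 h the shares were 12.3% and 12.6%. A GR peak was present in 184 of the 332 windows with both lists. It was present in 650 of the 3058 windows with 240 h but no 24 h regions. The part of this in the nearness of 240 h regions to GR was not tested.

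The window with most regions of both lists lay on chromosome 7 from 118700000 to 118800000, with 3 regions of 24 h and 6 of 240 h. It had 7 peaks of C/EBPβ at 6 h, 3 of GR and no 0 h region. Of the 332 windows with both lists, 170 held at least 3 C/EBPβ 6 h peaks and 184 a GR peak. In the chromosome 7 window the 24 h regions lay together between 118737350 and 118748750. The 240 h regions lay on both sides of them, with the nearest 200 bp away, and the broadest spanned 118765600 to 118774200 with a read count of 17. A C/EBPβ peak of height 52 and a GR peak of height 32 fell in the first of the 24 h regions.

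The next windows showed other mixtures. On chromosome 2 a window from 27200000 held 3 regions of 24 h and 4 of 240 h with 1 C/EBPβ 6 h and no GR peak, and one from 30600000 held 7 and 2. Windows on chromosome 15 from 99900000 and chromosome 3 from 41500000 held 4 and 3, and 3 and 3. In the chromosome 3 window a 24 h region of 4500 bp held a GR peak of height 57, and the 240 h regions lay near the ends of the window. Only 4 windows of the genome held at least 3 regions of each list, and 122 of the 332 shared windows held 1 of each.

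Windows with most 24 h regions and none at 240 h held 8 on chromosome 16 from 24300000, 8 on chromosome 3 from 151900000 and 7 on chromosome 14 from 46800000. None of them held a 0 h region. They had 4, 6 and 6 C/EBPβ 6 h peaks and 2, 3 and 4 GR peaks, the highest of which had heights of 49, 18 and 86. Of all 1141 windows with a 24 h region, 575 held at least 3 C/EBPβ 6 h peaks and 617 a GR peak. In the chromosome 14 window the GR peak of height 86 lay across the gap between 24 h regions with read counts of 16 and 12.

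The balance of the lists varied between chromosomes. Over the genome there were 4.82 240 h regions for each 24 h region, and by chromosome from 2.08 on X and 2.21 on chromosome 13 to 8.96 on chromosome 6 and 10.2 on chromosome 7. Chromosome 13 held 107 of the 24 h regions (6.57%) but 3.01% of the 240 h list, and chromosome 7 held 46 (2.82%) and 5.98%. Densities at 240 h were highest on chromosome 19 (6.05 per Mb) and chromosome 11 (5.58 per Mb), and at 24 h on chromosome 17 (1.05 per Mb). The share of windows with a 240 h region was higher with than without a 24 h region on 19 of the 20 chromosomes. The exception was chromosome 13, at 9.52% and 9.89%. The shares with a 24 h region were highest on chromosomes 6 and 19, at 50% each, of 64 and 38 windows. Chromosome 6 also held 9.73% of the C/EBPβ 6 h and 11.7% of the GR peaks, and the part of these in its shares was not tested.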

How the data were processed

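ELAND placed 36 bp reads on mm8 with at most 2 mismatches, and only reads with a single position were kept, 1 for each start coordinate, per the labels' protocols. This leaves out repeats and caps the counts of the strongest sites. The region caller is not given in the sources used here. Per the file headers, the authors deposited for each H3K9ac region a position, an FDR (a q-value type of p-value, in 4 to 6 steps) and a signal called average read count, in whole numbers, and for each factor peak a height (signal) and a fold enrichment (a ratio), which was not used. All boundaries of H3K9ac regions fell on a grid of 50 bp. Read totals are not given, so depth is unknown. Of 10 samples, the 6 with lists were used and the 4 inputs were not.

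Python 3.11.15, numpy 2.4.6, pandas 2.3.3, scipy 1.17.1 and matplotlib 3.10.9 were used. Gaps are edge to edge, and chromosome lengths are the highest listed coordinates (2620 Mb in all). Windows span 100 kb, regions of 1 list under 12500 bp apart were joined, and clusters hold at least 3. The code was tested on simulated lists. Members, lists, comparisons and alternatives were chosen with earlier results of these data known. Named regions are the 3 widest and 3 highest by read count of each list, the 2 largest clusters of each, the 5 pairs within 1 kb with the highest summed read count, the 5 windows with most of both lists, and the 3 with most 24 h and no 240 h regions. Ties went by FDR, width and position. Regions were not assigned to genes and no sequences are shown, as the gene table at hand is on another build.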

Additional observations from a re-analysis of the deposited data

How the results depend on the processing

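No paired analysis was possible because each time is 1 library. With the lowest FDR step alone (287 regions at 24 h and 3551 at 240 h), the median width was 2350 bp at both times, and the excess of 240 h regions of 3 kb or more was 3.35 points. Clusters held 2.79% and 26.7% of the lists, 2.44% of 24 h regions had a 240 h region within 10 kb (0.156 points above 0 h regions), 15.7% of 24 h windows held a 240 h region, and 24 h windows exceeded 0 h windows by 2.38 points. The nearest region to a 24 h region was of 24 h in 46.0%, and the 240 h density within 10 kb of 24 h regions was 0.771-fold, from 6 pairs. With the 3 lists at 1629 regions each, kept by read count, the 240 h median was 2800 bp. The excess of 240 h regions of 3 kb or more was 37.1 points, and limiting by read count favours broad regions. Clusters held 14.8% of the 240 h list (a difference of 0.921 points). Of 24 h regions, 1.23% had a 240 h region within 10 kb, 0.307 points (-0.426 to 1.06) above the same share of 0 h regions. A 240 h region lay in 6.66% of 24 h windows, and the difference of 24 h from 0 h windows turned to -0.0732 points. The nearest region was then of 24 h for 65.9% and of 240 h for 15.7% of 24 h regions and of 240 h for 69.6% of 240 h regions, and the density was 0.790-fold. Other settings moved values by construction: clusters held 7.24% and 25.9% with a joining gap of 5 kb and 22.2% and 54.1% with 25 kb, 240 h regions lay near 6.51% of 24 h regions by centres, 4.42% within 5 kb and 30.7% within 50 kb, and 24 h windows of 50 and 200 kb held them in 17.4% and 43.0%. The excess of 24 h over 0 h windows was 2.85 points with shifted windows, 2.44 with 50 kb and 4.10 with 200 kb, each with an interval that took in 0. Limited to windows with any listed peak or region, which keeps every window with a 240 h region, the difference between windows with and without 24 h regions turned to -2.02 points, and in those without a C/EBPβ 6 h peak to -25.6. Autosomes alone changed none of these calls. The alternatives for density were added after its values had been seen. Unknown depth limits every statement on regions missing from a list.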
